A study of Mus musculus with 23 samples.

Results

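Expression of 10 genes of pulmonary surfactant and of the lamellar body was described across 23 mouse lung libraries. The genes were the surfactant proteins Sftpa1, Sftpb, Sftpc and Sftpd, and Abca3, Lamp3, Napsa, Slc34a2, Etv5 and Lpcat1, matched by symbol among the 35322 genes of the deposited table. All 10 had a row, and all 10 were among the 16795 genes tested. BALB/c dams were given PM2.5, fine airborne particles, or saline by the nose before mating and until weaning. Lungs came from female offspring aged 13 weeks. Sham (n = 7) and PM (n = 7) offspring of saline and PM2.5 dams had no ovalbumin (OVA) challenge. The methods name nebulised saline for these controls, and their labels name PBS. Whether they were sensitised is not clear from the methods. Sham-OVA (n = 5) and PM-OVA (n = 4) offspring were sensitised to OVA with alum and then inhaled it, which induces allergic airway disease. Lungs were taken after a lung function test, and the labels name the piece RML where the methods name the right lower lobe. The labels do not tie libraries to dams, so littermates cannot be told from unrelated offspring, and the p-values measure the spread between these libraries.

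Surfactant is a film of phospholipid and protein that lowers surface tension in the alveolus. It is made by alveolar type 2 cells, which pack it in lamellar bodies, organelles related to lysosomes, and secrete it. The hydrophobic proteins SP-B and SP-C spread the lipid film, whereas SP-A and SP-D are collectins that bind microbes and allergens in the airspace. In adult lung Sftpc is the usual marker of type 2 cells, and Sftpb and Sftpa1 are also transcribed in club cells of the airway.

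Saline libraries held between 13089691 and 17393579 reads on genes, and OVA libraries between 2298645 and 12355561. They made up 83% to 92.4% of the reads that the values are scaled to in the saline libraries and 71.4% to 85.7% in the OVA libraries. The shallowest were replicate 3 of Sham-OVA (2298645 reads) and replicates 3 (5922469) and 4 (4324326) of PM-OVA. Sham replicate 1 had 0.289 RPM of Xist and 54 RPM of the Y-linked Eif2s3y, against its female label. Without it the same 6 members passed the threshold in Sham-OVA against Sham, with Sftpc at 1.09 instead of 1.19 and Lamp3 at -3.32 instead of -3.34 on the log2 scale. Levels are given as RPM, reads of a gene scaled to the size of its library, and per kilobase of exon where genes are compared. Whole lung was measured, so fewer cells of a type and less RNA per cell cannot be told apart.

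The 4 surfactant protein genes lie on 2 chromosomes of GRCm38. Sftpa1 (chr14:41131782-41136452, plus strand) and Sftpd (chr14:41172214-41185149, minus strand) lie close together, Sftpc is on the same chromosome (chr14:70520949-70524081, minus strand) and Sftpb is at chr6:72304610-72314371 on the plus strand. Lamp3 (chr16:19653378-19706375) and Etv5 (chr16:22381309-22439719) lie on the minus strand of 1 chromosome. The remaining members are Abca3 at chr17:24351950-24410201, Napsa at chr7:44572380-44586862, Slc34a2 at chr5:53038081-53071664 and Lpcat1 at chr13:73467197-73516422, all on the plus strand. Exons of Abca3 overlap those of D330041H03Rik on the other strand, and exons of Napsa those of Gm15396. Whether the counting used strand is not given in the sources used here, so reads of these pairs may be mixed.

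RefSeq promoter sequences (GRCm38.p6) were available for 7 members, with 8 start sites, 2 of them in Etv5. None was available for Sftpc, Sftpd and Napsa. The 250 bases before the start are shown for Sftpa1, Sftpb, Lamp3 and Slc34a2. After OVA Sftpa1 was higher, Sftpb was not called in the main test, and Lamp3 and Slc34a2 were lower. Capitals mark matches, on either strand, to the motifs searched. For NKX2-1 a first motif was CTCAAG. A second motif searched for the same factor was written CAAGTG. The motif of FOXA factors was written TGTTTNC. The motif of C/EBP factors was TTNCNNAA and that of STAT3 was TTCNNNGAA, beside the STAT6 motif. Of the remaining motifs, that of ETS factors was CCGGAAG. The box bound by the TATA-binding protein was written TATAAA. The NKX2-1 motifs share letters and can overlap, which they did not do in these promoters, and some of the motifs can match both strands at 1 place.
Sftpa1, chr14:41131538-41131787, plus strand: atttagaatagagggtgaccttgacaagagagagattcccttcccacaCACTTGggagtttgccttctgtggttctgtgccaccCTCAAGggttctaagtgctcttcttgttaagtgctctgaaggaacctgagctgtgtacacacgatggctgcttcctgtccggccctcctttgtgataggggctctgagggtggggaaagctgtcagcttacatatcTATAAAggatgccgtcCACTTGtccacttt
Sftpb, chr6:72304360-72304609, plus strand: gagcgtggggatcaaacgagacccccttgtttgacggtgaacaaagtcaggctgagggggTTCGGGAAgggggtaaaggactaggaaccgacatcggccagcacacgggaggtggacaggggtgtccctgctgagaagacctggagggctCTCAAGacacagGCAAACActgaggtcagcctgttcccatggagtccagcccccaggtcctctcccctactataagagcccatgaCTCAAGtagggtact
Lamp3, chr16:19706366-19706615, minus strand: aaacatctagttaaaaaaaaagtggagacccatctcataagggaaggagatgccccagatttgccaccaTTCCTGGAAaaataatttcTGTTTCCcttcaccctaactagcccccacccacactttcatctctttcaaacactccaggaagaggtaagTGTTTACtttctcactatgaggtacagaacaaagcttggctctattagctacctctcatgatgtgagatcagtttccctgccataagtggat
Slc34a2, chr5:53049103-53049352, plus strand: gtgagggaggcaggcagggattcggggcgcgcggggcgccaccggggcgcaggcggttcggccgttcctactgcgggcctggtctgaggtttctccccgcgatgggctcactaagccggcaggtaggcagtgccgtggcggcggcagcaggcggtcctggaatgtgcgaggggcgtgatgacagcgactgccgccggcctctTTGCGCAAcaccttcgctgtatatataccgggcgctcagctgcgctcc

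NKX2-1 is the lung lineage factor best known for its sites in surfactant promoters. CTCAAG was present in the promoters of Sftpa1 and Sftpb, 2 of the 8, against 13.3% of 32851 promoters, and CAAGTG in that of Sftpa1 alone, against 11.6%. In Sftpb the first bases of its CTCAAG matches stood 100 and 15 bases before the start. The FOXA motif was present in Sftpb, Lamp3 and 1 start of Etv5, against 17.8% of all promoters, and the C/EBP motif in Sftpb and Slc34a2, against 36.8%. The STAT3 motif was present in Lamp3 (7.02% of all promoters), TATAAA in Sftpa1 (12.4%), and the ETS (6.91%) and STAT6 (5.85%) motifs in none of the 8. The higher gene Sftpa1 and the gene Sftpb, which was not called in the main test, therefore share CTCAAG. The lower genes Lamp3, Slc34a2 and Etv5 hold neither NKX2-1 motif in this window. Abca3 and Lpcat1, which were not called in the main test, hold neither, so the absence was not limited to lower genes. Sftpc and Sftpd, which were higher, had no sequence to search. Presence or absence of a motif says nothing of binding.

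Sftpc was the most abundant member in all 4 groups. Per kilobase of exon its level in Sham was 9728 ± 2868 RPM (SD, n = 7), above Sftpb (1297 ± 317) and Sftpa1 (1261 ± 257), whose levels did not differ beyond their spread. Slc34a2 (402 ± 55.9) and Sftpd (288 ± 61.4) came next, followed by Napsa (95.3 ± 21.1), Lpcat1 (82.2 ± 19), Lamp3 (63.2 ± 17.2) and Abca3 (43.3 ± 3.33). Napsa and Lpcat1 differed by less than the SD of either. Etv5, a transcription factor of type 2 cell maintenance, was lowest at 3.51 ± 1.02 RPM per kilobase. In Sham-OVA the order became Sftpc (21465 ± 2361, n = 5), Sftpa1 (2143 ± 483), Sftpb (1396 ± 108), Sftpd (528 ± 89.2) and Slc34a2 (233 ± 74.1), while Lamp3 fell below Abca3, at 9.72 ± 6.38 against 42.1 ± 4.71 RPM per kilobase. In PM-OVA Lamp3 was also below Abca3, at 13.4 ± 18.6 against 41.6 ± 4.59 (n = 4).

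OVA challenge divided the members in the same way in Sham and in PM offspring. Sftpc, Sftpa1 and Sftpd were higher, Lamp3, Etv5 and Slc34a2 were lower, and Sftpb, Abca3, Napsa and Lpcat1 did not pass the threshold. The test was limma on log2(RPM + 0.5) with Benjamini-Hochberg adjustment over all 16795 genes and a threshold of 0.05. In Sham offspring 6 of 10 members were called, against 68.1% of all genes, 3 of them higher (20.6% of all genes) and 3 lower (47.5%). In PM offspring 6 of 10 were called as well, against 65.3%, again 3 higher (20.1%) and 3 lower (45.2%). For a set of 10 genes both counts were near these shares, and nothing about the members is read from them. Of all called genes 30.2% and 30.8% were higher, against 48.5% and 49.3% after quantile normalisation and 49.6% and 50.1% with edgeR. The median log2 fold change of all genes was -0.48 in Sham and -0.43 in PM offspring. At the threshold of the study, an adjusted p under 0.000001 with an absolute log2 fold change above 1, limma called 0 members, with 1.98% of all genes higher and 2.53% lower in Sham offspring, and 0.262% and 0.0238% in PM offspring. Without Sham-OVA replicate 3 Lamp3 and Etv5 passed it in Sham offspring, where limma then called 5.72% of all genes higher and 12.6% lower. The count depended on the tool. DESeq2, the tool of the study, run here on the recovered reads, called Sftpa1, Sftpc and Sftpd higher and Etv5 lower in Sham offspring at that threshold, where it called 13.7% of all genes higher and 15% lower. In PM offspring it called Sftpa1 and Sftpd higher, against 10.5% of all genes higher and 6.25% lower. At an unadjusted limma p under 0.05 the same 6 members passed, against 70.9% and 68.8% of all genes.

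**Figure D1:**
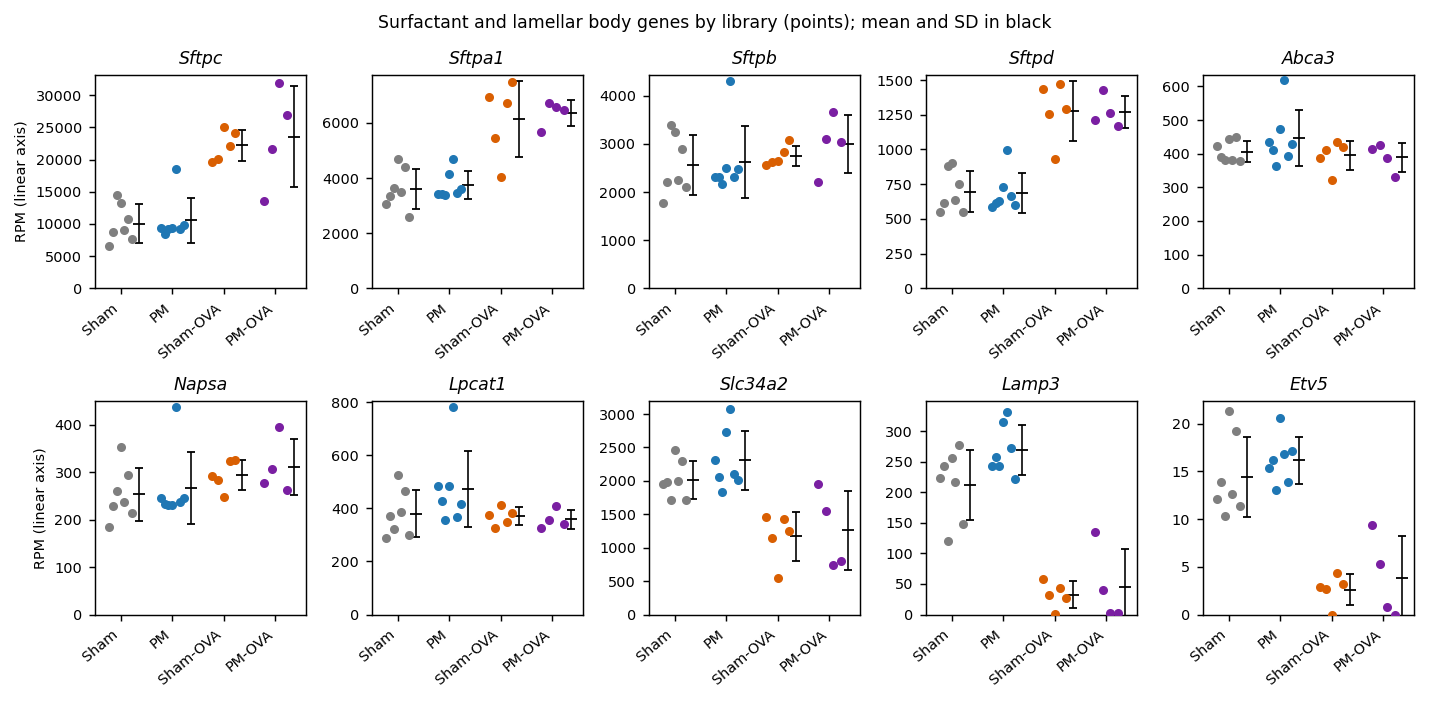
Level of each member in RPM (vertical axis, linear, from 0) in every library of the 4 groups, with the group mean and SD in black. The OVA libraries sit above most saline libraries for Sftpc, Sftpa1 and Sftpd and below them for Lamp3, Etv5 and most of Slc34a2, and PM replicate 5 stands above the other PM libraries for Sftpc and Sftpb.

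Sftpc encodes SP-C, a small peptide of the type 2 cell. It ranged from 6489.6 RPM (median 9037) to 14557 RPM in Sham and measured 19549.8, 20075, 25078, 22073 and 24201 RPM in Sham-OVA replicates 1 to 5. It ranged from 8486 RPM (median 9306) to 18493 RPM in PM and measured 13569, 21678, 31953 and 27004 RPM in PM-OVA replicates 1 to 4. All Sham-OVA libraries were above all Sham libraries, a separation seen in 13.2% of genes, whereas PM-OVA replicate 1 lay below PM replicate 5. Sftpc rose by 1.19 ± 0.27 (log2 fold change ± SE, limma adjusted p = 0.00147) in Sham and by 1.14 ± 0.34 (adjusted p = 0.0106) in PM offspring. These differences lay at percentiles 91.5 and 92 of all genes. In PM offspring the call was lost without the 3 shallow libraries (0.75, limma adjusted p = 0.223), and in both comparisons it was lost with quantile normalisation, which sets all libraries to the same highest values (0.45 and 0.25). With all genes kept, without a filter, the limma adjusted p of Sftpc was 0.15 in Sham and 0.384 in PM offspring. In PM offspring the call was also lost with a trend of exon length and GC content taken out (0.71, limma adjusted p = 0.112) and with a block on library name numbers (0.86, adjusted p = 0.438).

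Sftpa1 and Sftpd encode the collectins SP-A and SP-D. Sftpa1 ranged from 2583 to 4689 RPM in Sham (median 3510.0) and from 3388 to 4700.1 RPM in PM (median 3465). It measured 6925, 5447, 4054, 6717 and 7502 RPM in Sham-OVA and 5665, 6714, 6569.6 and 6458 RPM in PM-OVA. Sham-OVA replicate 3 lay within the Sham range and the other 4 Sham-OVA libraries above it. PM-OVA and PM did not overlap, a separation upwards seen in 13.3% of genes. The difference was 0.76 ± 0.23 on the log2 scale (limma adjusted p = 0.00821) in Sham and 0.77 ± 0.20 (adjusted p = 0.0046) in PM offspring. Its direction turned with quantile normalisation, to -0.20 (limma adjusted p = 0.568) and -0.25 (adjusted p = 0.429). Both calls were also lost without a filter (limma adjusted p = 0.0578 and 0.0907) and with a block on library name numbers (adjusted p = 0.0803 and 0.409).

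Sftpd ranged from 549 to 901 RPM in Sham (median 633) and from 583 to 996 RPM in PM (median 626). It measured 1434, 1257, 928, 1475 and 1292 RPM in Sham-OVA and 1213, 1431, 1262 and 1173 RPM in PM-OVA. Every OVA library was above every saline library of its comparison, a separation upwards seen in 13.2% of genes in Sham and 13.3% in PM offspring. Sftpd rose by 0.88 ± 0.18 (limma adjusted p = 0.000588) in Sham and by 0.90 ± 0.17 (adjusted p = 0.000639) in PM offspring. It kept its direction and its call with quantile normalisation (0.85 and 0.95). In PM offspring the call was lost with a block on library name numbers (limma adjusted p = 0.163). The ratio of Sftpd to Sftpa1 was 0.194 ± 0.0248 in Sham against 0.212 ± 0.024 after OVA, and 0.183 ± 0.0153 in PM against 0.2 ± 0.0161 after OVA, differences smaller than the SD of either group in Sham and about as large in PM offspring.

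Sftpb encodes SP-B, without which lamellar bodies do not form properly. It ranged from 1770.5 to 3392 RPM in Sham (median 2257) and from 2158 to 4316 RPM in PM (median 2319.9). It measured 2560.4, 2622, 2644, 2825 and 3082 RPM in Sham-OVA and 2209, 3097, 3669 and 3034 RPM in PM-OVA, which overlapped the saline libraries. The difference was 0.14 (95% confidence interval -0.28 to 0.56, limma adjusted p = 0.546) in Sham and 0.21 (-0.29 to 0.71, adjusted p = 0.445) in PM offspring. With edgeR on the recovered reads Sftpb was called higher, at 0.59 (adjusted p = 0.0141) and 0.62 (adjusted p = 0.0494). DESeq2 also called all 4 surfactant proteins higher in both comparisons, Sftpb among them.

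The proportions of the surfactant protein transcripts within a library are not changed by a scaling factor. Sftpb made up 15.1% ± 0.619 of the summed reads of Sftpa1, Sftpb, Sftpc and Sftpd in Sham and 14.9% ± 0.461 in PM, but 8.5% ± 0.3 in Sham-OVA and 8.91% ± 0.796 in PM-OVA (mean ± SD). The highest OVA library, at 9.75%, was below the lowest saline library, at 14.1%. The share of Sftpc went from 59% ± 3.05 to 68.6% ± 4.77 with OVA in Sham offspring and from 59.3% ± 2.82 to 67.7% ± 6.17 in PM offspring, with overlap. The ratio of Sftpc to Sftpb was 3.61 to 4.29 in Sham and 3.66 to 4.29 in PM. It was 7.64, 7.66, 9.48, 7.81 and 7.85 in Sham-OVA and 6.14, 7.00, 8.71 and 8.90 in PM-OVA. The highest ratios belonged to the 3 shallow libraries, and the other 6 OVA libraries were also above all 14 saline libraries. This contrast was known when the genes were chosen and is given without a test. The 4 transcripts together took 1.69% ± 0.429 of the reads in Sham against 3.23% ± 0.259 after OVA, and 1.76% ± 0.486 in PM against 3.42% ± 0.88 after OVA.

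**Figure D2:**
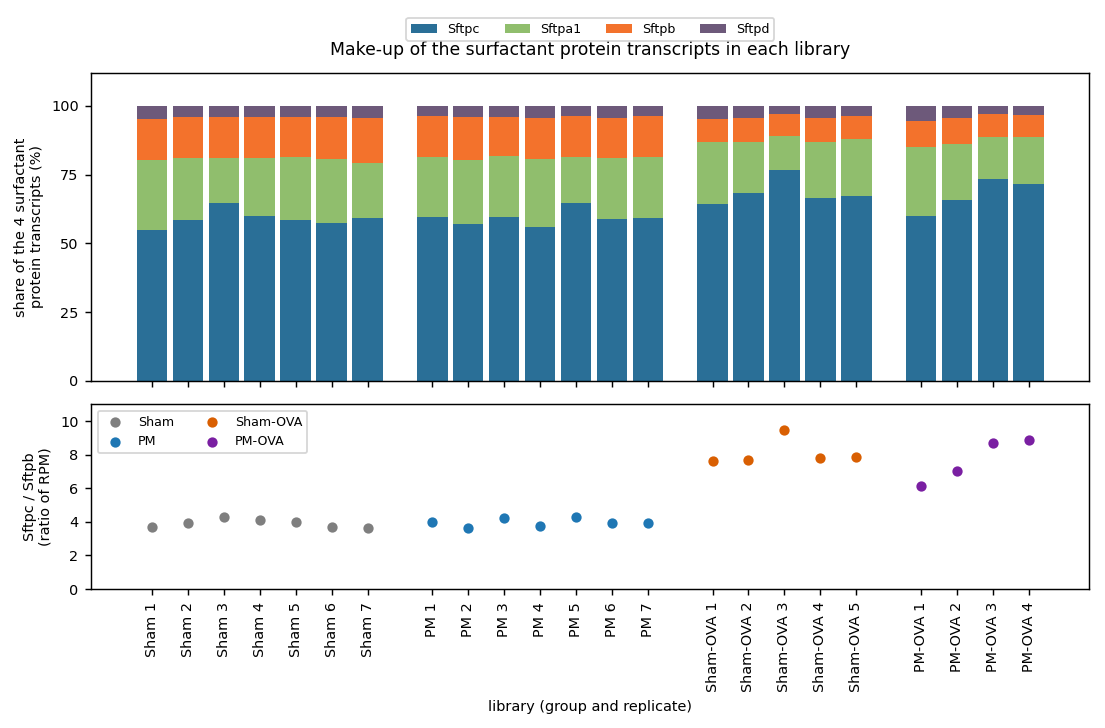
Share of each surfactant protein transcript in the sum of the 4 (upper axis, %, stacked to 100) and ratio of Sftpc to Sftpb (lower axis, ratio of RPM) in each of 23 libraries. The band of Sftpb narrows from about the 15.1% of Sham to 8.5% in Sham-OVA, and every OVA ratio, 6.14 or more, is above every saline ratio, 4.29 or less.

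Lamp3, the lysosomal membrane protein also called DC-LAMP, found on lamellar bodies and in mature dendritic cells, was the member with the largest difference. It ranged from 119.5 to 278 RPM in Sham (median 223) and from 223 to 332 RPM in PM (median 257). It measured 58.6, 32, 0.932, 43.9 and 27.5 RPM in Sham-OVA and 135, 40.6, 2.52 and 1.82 RPM in PM-OVA. No OVA library reached the lowest saline library of its own comparison, a separation downwards seen in 35% of genes in Sham and 28.6% in PM offspring. The difference was -3.34 ± 0.69 on the log2 scale (limma adjusted p = 0.000627, percentile 1.07) in Sham and -4.25 ± 0.88 (adjusted p = 0.0012, percentile 0.191) in PM offspring. The 3 shallow libraries held 3, 19 and 10 reads of Lamp3. Without them it was -2.38 (limma adjusted p = 8.16e-08) and -1.84 (adjusted p = 0.000953), still called in both. Leaving out PM-OVA replicate 1, the highest, gave -5.34, replicate 3 gave -3.51 and replicate 4 gave -3.38.

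Etv5, a factor acting downstream of FGF signalling, ranged from 10.3 to 21.3 RPM in Sham (median 12.7) and from 13 to 20.6 RPM in PM (median 16.2). It measured 2.85, 2.71, 0, 4.3 and 3.21 RPM in Sham-OVA and 9.34, 5.26, 0.797 and 0 RPM in PM-OVA. The OVA and saline libraries did not overlap, a separation downwards seen in 35% of genes in Sham and 28.6% in PM offspring. The zeros stood in replicate 3 of Sham-OVA, where 3 reads make 0.932 RPM, and in replicate 4 of PM-OVA, where they make 0.545 RPM. The difference was -2.54 ± 0.45 (limma adjusted p = 0.000172) in Sham and -2.75 ± 0.62 (adjusted p = 0.00204) in PM offspring. Without the shallow libraries it was -1.96 (limma adjusted p = 2.33e-07) and -1.13 (adjusted p = 0.00127), and leaving out PM-OVA replicate 1 or 4 alone gave -3.41 or -1.98.

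Slc34a2, the sodium-phosphate cotransporter that takes up phosphate released from surfactant, ranged from 1709 to 2464 RPM in Sham (median 1983) and from 1840.5 to 3071 RPM in PM (median 2100.1). It measured 1458, 1150.1, 542, 1429 and 1257 RPM in Sham-OVA and 1948, 1542, 742 and 796 RPM in PM-OVA. Sham-OVA and Sham did not overlap, a separation downwards seen in 35% of genes, while PM-OVA replicate 1 lay within the PM range. The difference was -0.86 ± 0.23 (limma adjusted p = 0.00457) in Sham and -0.98 ± 0.28 (adjusted p = 0.00773) in PM offspring, 0.38 and 0.55 below the median of all genes, at percentiles 36 and 29.1. It was not called in either comparison once a trend with exon length and GC content was taken out of each library (-0.30 and -0.43). That alternative was chosen after seeing the data. In PM offspring the call was also lost without the shallow libraries (-0.39, limma adjusted p = 0.207) and with a block on library name numbers.

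**Figure D3:**
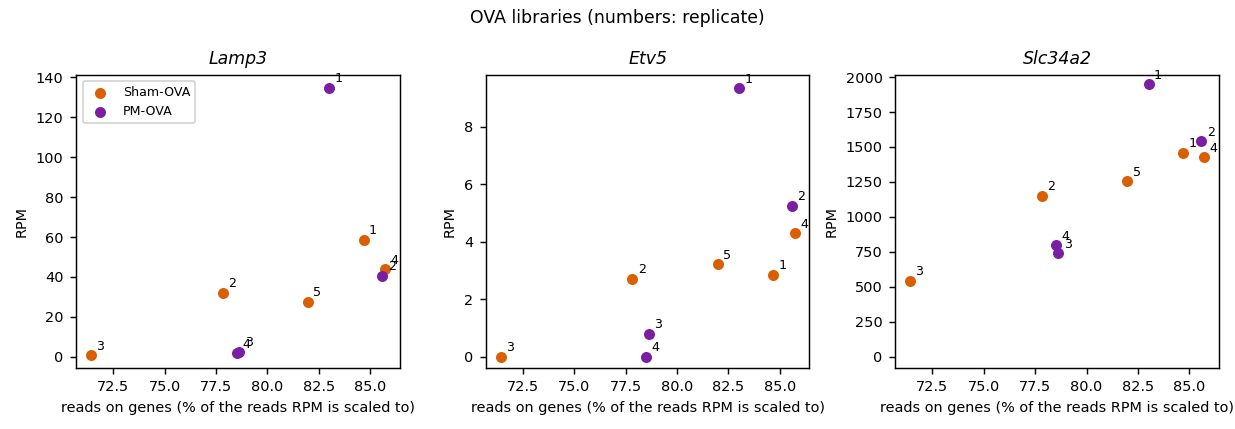
Lamp3, Etv5 and Slc34a2 in RPM (vertical axes, linear) against the share of reads counted on genes (horizontal axes, %) in the 9 OVA libraries, numbered by replicate. Replicate 3 of Sham-OVA (71.4% of reads on genes) and replicates 3 (78.6%) and 4 (78.5%) of PM-OVA are the lowest for all 3 genes, and PM-OVA replicate 1 is the highest.

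These 3 genes moved together among the OVA libraries. Over the 9 of them, with group means taken out, Pearson's r was 0.968 between Lamp3 and Etv5 and 0.99 between Lamp3 and Slc34a2, as a description of libraries that also share depth and the share of reads on genes. Sham-OVA replicate 2, with 77.8% of reads on genes and 10345173 reads, had 32 RPM of Lamp3, against 2.52 and 1.82 RPM in the 2 shallow PM-OVA libraries, with 78.6% and 78.5%. Sftpc went the other way, with r = -0.814 to Lamp3, and was highest in the 3 shallow libraries. In the 14 saline libraries the corresponding r of Sftpc and Lamp3 was 0.0664. The part of depth and of the share of reads on genes in the levels of these genes was not tested. Without the 3 libraries the differences in PM offspring were -1.84 instead of -4.25 for Lamp3 and -1.13 instead of -2.75 for Etv5.

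The remaining 4 members act in lipid transport, processing and lipid synthesis. Abca3, which pumps phospholipid into lamellar bodies, ranged from 377 to 449 RPM in Sham and from 364 to 621 RPM in PM. It measured 389, 409.7, 322, 436 and 419 RPM in Sham-OVA and 414, 427, 387 and 330.3 RPM in PM-OVA, close to the saline values. The difference was -0.04 (95% confidence interval -0.31 to 0.22, limma adjusted p = 0.763) in Sham and -0.18 (-0.52 to 0.16, adjusted p = 0.315) in PM offspring, or 0.44 and 0.24 above the median of all genes. Its direction depended on the scaling: in Sham offspring it was called higher with median-of-ratios scaling (0.33), edgeR (0.42) and DESeq2 (0.34), and in both comparisons with the length and GC trend taken out (0.68 and 0.49).

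Napsa encodes napsin A, a protease that cleaves the SP-B precursor. It ranged from 186 to 354 RPM in Sham and from 231 to 438 RPM in PM, and measured 293, 284, 249, 323 and 325 RPM in Sham-OVA and 277, 307, 396 and 263 RPM in PM-OVA. The groups overlapped, and the difference was 0.24 (95% confidence interval -0.10 to 0.58, limma adjusted p = 0.197) in Sham and 0.24 (-0.17 to 0.66, adjusted p = 0.278) in PM offspring. Napsa kept its sign in all alternatives and was called higher in 5 of 27 in Sham and 6 of 26 in PM offspring. Among these were edgeR in both (0.68 and 0.64) and, in PM offspring, the fit without PM replicate 5 (0.37, limma adjusted p = 0.0249). Lpcat1, the acyltransferase that remodels phosphatidylcholine to its disaturated surfactant form, ranged from 289 to 526.0 RPM in Sham and from 355 to 781 RPM in PM. It measured 376, 326, 414, 347 and 384 RPM in Sham-OVA and 328, 358, 410.2 and 342 RPM in PM-OVA. Its difference was -0.02 (95% confidence interval -0.37 to 0.33, limma adjusted p = 0.935) in Sham and -0.35 (-0.78 to 0.07, adjusted p = 0.13) in PM offspring, and edgeR gave 0.46 (adjusted p = 0.0449) in Sham offspring.

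**Figure D4:**
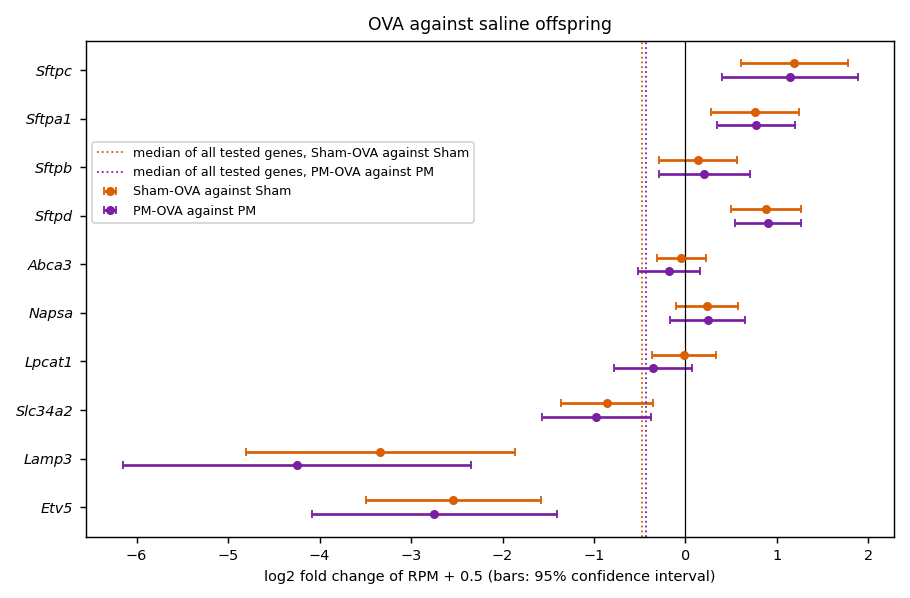
Log2 fold change of RPM + 0.5 (horizontal axis) of each member with OVA in the offspring of saline dams and of PM2.5 dams, with 95% confidence intervals (bars) and the median of all tested genes, -0.48 and -0.43 (dotted lines). Intervals of Sftpc, Sftpa1 and Sftpd lie above 0, those of Slc34a2, Lamp3 and Etv5 below 0, and those of the other 4 members include 0.

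Maternal PM2.5 exposure was compared without and with OVA, and no member was called in either comparison or in the interaction, for each of which limma with all libraries gave 0 of 16795 genes (0%) an adjusted p under 0.05. The counts at an unadjusted p under 0.05 were 731 genes (4.35%) in PM against Sham, 313 (1.86%) in PM-OVA against Sham-OVA and 854 (5.08%) in the interaction, and edgeR called 0, 0 and 0 genes and DESeq2 0, 1 and 2. Without the 3 shallow libraries limma called 721 genes (4.29%) in the interaction, 612 higher and 109 lower, and 0 members. Lamp3 in PM against Sham was the 1 member with an unadjusted limma p under 0.05, with a difference of 0.38 (95% confidence interval 0.03 to 0.74, adjusted p = 0.898). For Sftpc the difference was 0.07 (-0.62 to 0.76) without OVA and 0.02 (-1.05 to 1.09) with OVA, and for Sftpa1 0.07 (-0.33 to 0.46) and 0.08 (-0.60 to 0.76). For Lamp3 in PM-OVA against Sham-OVA it was -0.53 (-3.72 to 2.66), and for Etv5 -0.02 (-2.14 to 2.10), so differences of several log2 units were not detectable in these 2 genes with 4 against 5 libraries. The interaction was -0.05 (-0.88 to 0.79) for Sftpc, 0.02 (-0.48 to 0.52) for Sftpd and -0.92 (-3.37 to 1.54) for Lamp3. With array weights, which give variable libraries less weight, the interaction was called for Lamp3 (-3.41, limma adjusted p = 0.00116), Etv5 (-1.82, adjusted p = 0.00445) and Slc34a2 (-0.76, adjusted p = 0.0394). The same fit called 4616 genes (27.5%), 651 higher and 3965 lower, with a median of -0.32 over all genes. Those weights were 0.0726 and 0.154 for PM-OVA replicates 1 and 2, 0.963 and 0.438 for the shallow PM-OVA replicates 3 and 4, and 0.0582 for the shallow Sham-OVA replicate 3. The weighted interaction thus drew mostly on shallow libraries in PM-OVA and on deeper ones in Sham-OVA, and edgeR, DESeq2 and limma without weights called none of the 3.

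Across all 23 libraries with group means taken out, the genes most like Sftpc among the 16795 were Sftpb (r = 0.952), S100a6 (0.943), Slc25a39 (0.94), Spint2 (0.937) and Mgat4b (0.928). Sftpb thus followed Sftpc from library to library within groups, with r = 0.984 over 14 saline and 0.909 over 9 OVA libraries. Between groups limma called Sftpc but not Sftpb, while edgeR and DESeq2 called Sftpb higher too. The other 4 rose with OVA as Sftpc did, S100a6 by 1.85 and 1.68, Slc25a39 by 1.64 and 1.56, Spint2 by 1.49 and 1.52 and Mgat4b by 1.03 and 1.09 on the log2 scale. Napsa was next among the members (r = 0.772), followed by Lpcat1 (0.683), Sftpd (0.617), Sftpa1 (0.509) and Abca3 (0.271), while Slc34a2 (-0.218), Etv5 (-0.351) and Lamp3 (-0.45) had negative values. These are descriptions over libraries of unequal depth.

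Genes that act with the members were read from lists compiled with earlier results of these data known, and their counts stand beside 20.6% and 20.1% higher and 47.5% and 45.2% lower among all genes. With edgeR, whose counts are given for some lists, 33.2% of all genes were higher and 33.8% lower in Sham offspring, and 30.5% and 30.3% in PM offspring. Of 33 genes of surfactant phospholipid synthesis 3 were higher and 16 lower in Sham and 3 and 20 in PM offspring, with medians of -0.56 and -0.58 beside -0.48 and -0.43 for all genes. Pcyt1a, the rate-limiting enzyme of phosphatidylcholine synthesis, fell from 128 ± 20 RPM in Sham to 38.2 ± 17 RPM in Sham-OVA (-1.92, limma adjusted p = 0.000169) and in PM offspring (-1.90). Insig1, which holds back sterol synthesis, differed by -4.18 and -3.44, Lpin2 by -3.05 and -2.61 and Acsl1 by -2.38 and -1.53, the last of which was -0.38 (limma adjusted p = 0.187) with the length and GC trend taken out. Scd1, a fatty acid desaturase, was called higher in Sham offspring (0.86, limma adjusted p = 0.00267) and had -0.44 (adjusted p = 0.0565) in PM offspring. The fatty acid synthase Fasn had 0.05 (limma adjusted p = 0.726) and -0.42 (adjusted p = 0.0499), and its call depended on the setting: edgeR gave 0.51 (adjusted p = 0.00669) and -0.06 (adjusted p = 0.802). Srebf1 had -0.15 (limma adjusted p = 0.345) and -0.04 (adjusted p = 0.748), and edgeR called it higher, at 0.31 and 0.35. With edgeR the counts of this list were 11 higher and 11 lower in Sham and 6 and 11 in PM offspring.

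Of 29 tested genes of protein processing and lamellar body biogenesis 7 were higher and 13 lower in Sham and 6 and 14 in PM offspring, shares near those of all genes. The ubiquitin ligases Itch and Nedd4, which sort the SP-C precursor, were lower, by -3.85 and -2.63 in Sham and -3.23 and -2.60 in PM offspring. Nedd4 is among the authors' signature genes of lung mesenchymal cells, so its level is not that of type 2 cells alone. Lrrk2, a kinase of lysosome-related organelles, had -2.02 and -2.29. Nedd4l had -1.05 and -1.05, which turned to 0.30 and 0.31 with the length and GC trend taken out. Hps1, whose loss enlarges lamellar bodies, rose by 1.10 and 0.90, whereas the SP-B protease Ctsh had 0.01 (limma adjusted p = 0.966) and 0.02 (adjusted p = 0.941), and Rab38 0.37 (adjusted p = 0.0854) and 0.42 (adjusted p = 0.0505). With edgeR Ctsh was called higher in Sham offspring (0.52) and Rab38 in both (0.82 and 0.86). With edgeR the list had 13 higher and 6 lower in Sham and 11 and 10 in PM offspring.

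Of 22 genes of regulated secretion 5 were higher and 11 lower in Sham and 5 and 12 in PM offspring. Adgrf5, the receptor that restrains the surfactant pool, fell from 1354 ± 339 to 327 ± 85.8 RPM in Sham offspring (-2.05, limma adjusted p = 3.05e-06). In PM offspring it fell by 2.00 on the log2 scale. The authors list Adgrf5 among the signature genes of lung endothelial cells, so its level is not that of type 2 cells alone. Atp11a had -2.02 and -1.97 and Fam13a -2.38 and -1.40, the last of which was -0.25 (limma adjusted p = 0.277) with the length and GC trend taken out, while Vamp8, a fusion protein of secretory granules, rose by 1.51 and 1.55. P2ry2, the ATP receptor that triggers secretion, had -0.19 (limma adjusted p = 0.526) and -0.20 (adjusted p = 0.542). Of 17 genes of clearance and recycling 6 were higher and 6 lower in Sham and 4 and 5 in PM offspring. Csf2ra and Csf2rb, which form the GM-CSF receptor needed for clearance by macrophages, had -1.86 (limma adjusted p = 0.0374) and -0.15 (adjusted p = 0.753) in Sham offspring, and -1.40 (adjusted p = 0.0527) and -0.45 (adjusted p = 0.241) in PM offspring. The call of Csf2ra was lost with edgeR (-0.72, adjusted p = 0.0922). The lipid exporter Abcg1 had -0.29 (limma adjusted p = 0.202) and -0.44 (adjusted p = 0.07). Spi1 rose by 1.92 and 1.51 and Slc7a11 by 1.99 and 1.32, Marco had -1.99 and -2.01, and the phospholipase Prdx6 -1.23 and -0.75. The call of Prdx6 in PM offspring was lost with edgeR (-0.31, adjusted p = 0.145), with DESeq2 (-0.31), with median-of-ratios scaling (-0.39), with the length and GC trend taken out (-0.22) and without the shallow libraries (-0.33).

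Of 28 tested regulators of the type 2 cell 7 were higher and 17 lower in both comparisons, with medians of -0.84 and -0.61. Nkx2-1 itself had -0.35 (limma adjusted p = 0.122) and -0.11 (adjusted p = 0.573), from 308 ± 59.1 RPM in Sham to 246 ± 63.5 RPM in Sham-OVA. The glucocorticoid receptor Nr3c1 had -2.77 and -2.75 and Gata6 -1.05 and -0.97, and both were called. Cebpa had -0.57 (limma adjusted p = 0.0208) and -0.60 (adjusted p = 0.0163), calls that were lost with median-of-ratios scaling (-0.20 and -0.23). Sox9 rose by 3.50 and 2.82, and Foxa3 by 2.51 and 3.04. Foxa2 had 0.35 (limma adjusted p = 0.0301) and 0.57 (adjusted p = 0.0312), calls that were lost with the length and GC trend taken out (0.17 and 0.32), in Sham offspring without Sham replicate 1 (0.29) and in PM offspring without the shallow libraries (0.20). The FGF-responsive Etv5 was thus lower beside Nkx2-1, whose change did not pass the threshold in the main test. With the length and GC trend taken out Nkx2-1 was called lower in Sham offspring (-0.44, limma adjusted p = 0.0233).

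Markers of cell types were read from lists in the same way. Of 28 other type 2 cell markers 11 were higher and 8 lower in Sham and 9 and 10 in PM offspring. The list holds 2 members, Sftpa1, which was called higher in both, and Abca3. With these 2 included, the summed level went from 7971 to 13717 RPM up to 12314 to 23236 RPM in Sham offspring. In PM offspring it went from 10455 to 16175 RPM up to 15167 to 19631 RPM, and both comparisons overlapped. Sftpa1 alone was 2583 to 4689 RPM in Sham and 4054 to 7502 RPM in Sham-OVA, and 3388 to 4700 RPM in PM and 5665 to 6714 RPM in PM-OVA. The sum is therefore not independent of the members. Chil1 rose by 2.06 and 1.90, while Lyz1 had -2.32 and -2.49 and Ppp1r14c -2.20 and -1.99. The label of type 2 cells thus did not go with 1 direction. With edgeR 17 of these 28 markers were higher and 7 lower in Sham and 12 and 5 in PM offspring. These counts stand beside the edgeR shares of all genes given above. Of 20 type 1 cell markers 17 were lower and 2 higher in Sham and 17 and 1 in PM offspring, and their sum was 12020 to 16654 RPM in Sham against 5875 to 8056 RPM after OVA, and 14155 to 15384 RPM in PM against 7117 to 8731 RPM after OVA. Col4a3 had -4.39 and -4.13, Clic5 -2.83 and -2.78 and Sema3a -2.69 and -2.43. The authors list Clic5, too, among the signature genes of lung endothelial cells. Of 16 club and goblet cell markers 10 were higher and 4 lower in Sham and 10 and 3 in PM offspring. The largest changes were those of Clca1 at 9.86 and 10.54, Bpifb1 at 6.98 and 6.70 and Muc5ac at 5.42 and 5.88. The list joins 2 cell types, so its counts and largest changes do not tell the direction of club cell markers. The summed level of the 16 overlapped, at 16082 to 39350.0 RPM in Sham against 4834 to 31409 RPM after OVA, and 16431 to 26906 RPM in PM against 8483 to 41982 RPM after OVA. Of 16 markers of injured type 2 cells in transition 6 were higher and 6 lower in Sham and 7 and 6 in PM offspring, with Lcn2 at 3.01 and 2.57, Lgals3 at 2.23 and 1.97 and Krt18 at -2.10 and -1.59 (-0.36 with a limma adjusted p of 0.166 without the shallow libraries, and -0.86 with an adjusted p of 0.0715 by edgeR, in PM offspring), and sums of 977 to 1508 RPM in Sham against 1988 to 2344 RPM after OVA, and 1261 to 1866 RPM in PM against 1788 to 2449 RPM after OVA. Of 10 genes shared by epithelial cells 1 was higher and 4 lower in Sham and 4 and 2 in PM offspring. With edgeR the counts of these 10 were 6 higher and 3 lower in Sham and 6 and 2 in PM offspring. The sums of these genes overlapped, at 831 to 1162 RPM in saline and 749 to 1299 RPM in OVA libraries. Elf3 rose by 1.93 and 1.95, and Esrp2 had -1.60 and -1.12. Of 11 tested markers of alveolar macrophages 5 were higher and 5 lower in both comparisons, with sums of 276 to 489.6 RPM in saline and 662 to 1148 RPM in OVA libraries, Chil3 at 4.74 and 4.92, Itgax at 2.99 and 2.67 and Cidec at -1.79 (-1.03 and not called with DESeq2) and -2.80. The part of these cell types in the levels of the members was not tested.

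**Figure D5:**
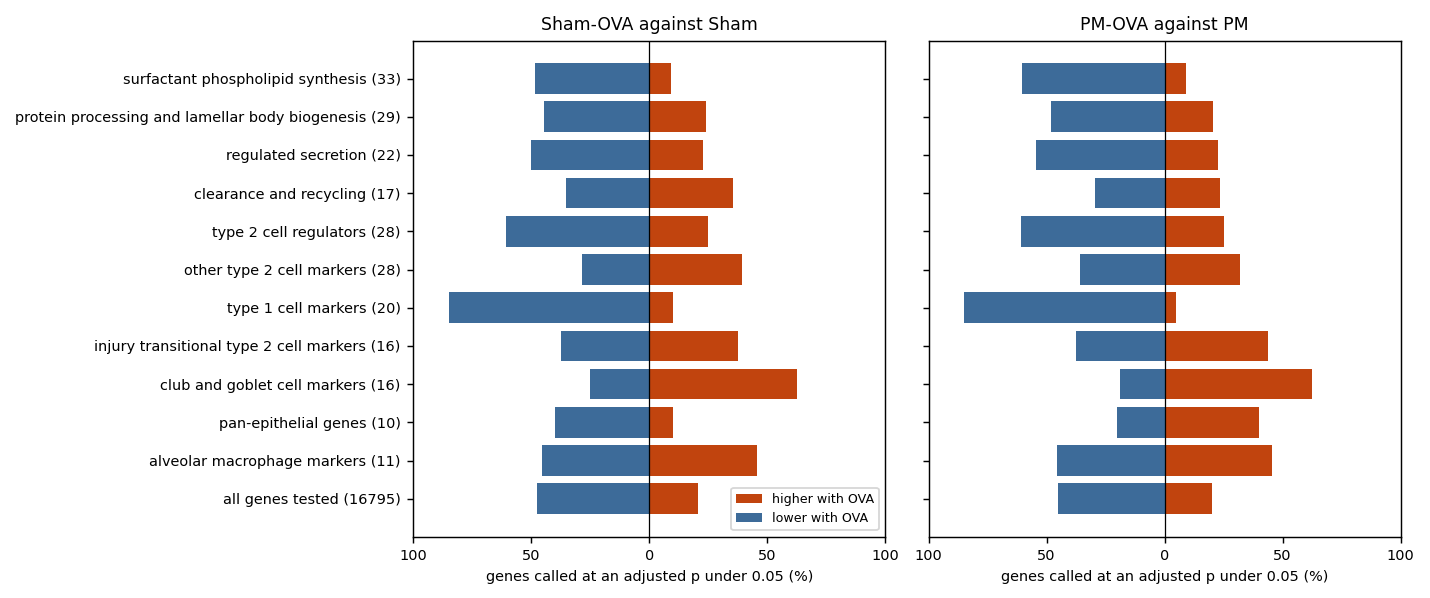
Share of the tested genes of each list (number in brackets) called higher (right) or lower (left) with OVA at an adjusted p under 0.05, in % of the list (horizontal axes), with all genes tested at the bottom. Type 1 cell markers are lower in 17 of 20 and club and goblet cell markers higher in 10 of 16 in both comparisons, while protein processing genes lie near the 47.5% and 45.2% lower and 20.6% and 20.1% higher of all genes.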

How the data were processed

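Whole lung of 23 mice was measured by stranded polyA RNA-Seq with single-end reads. Trimmomatic, Bowtie2 with GRCm38 (it does not split reads over introns) and SeqMonk were used by the authors to trim, align and quantify. The RPM values were deposited by the authors as 1 column per library. The table is named RPKM, but its values are whole multiples of 1 read within 0.02 read and are not divided by gene length. Whether reads in introns or on the other strand were counted is not given in the sources used here.

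Groups followed the labels. log2(RPM + 0.5) of the 16795 genes that reached 0.5 RPM in 4 or more libraries was tested with limma 3.58.1 in R 4.3.3, by a moderated trend fit of the 2 groups of each comparison, or of all 4 groups for the interaction, with Benjamini-Hochberg adjustment. Library size on genes ranged from 2298645 to 17393579 reads, so 3 reads corresponded to 0.932 RPM in the shallowest library. Exon lengths came from GENCODE and promoters from RefSeq. Alternatives were other pseudocounts, filters and scalings, array weights, replicate blocks, left-out libraries, and edgeR 4.0.16 and DESeq2 1.42.0 on the reads recovered from RPM. Scripts were tested on simulated data. Named genes were the 10 members, the 3 genes of each list with the largest mean absolute change over both OVA comparisons, textbook surfactant genes of those lists, and the 5 genes most correlated with Sftpc. The members and lists were chosen with earlier results of these data known. The values of 1 gene that this rule names are not reported here.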

Additional observations from a re-analysis of the deposited data

Results flagged for a closer look

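PM replicate 5 stood far from the other 6 PM libraries, by Dixon's criterion, for 6 of the 10 members. It had 18493 RPM of Sftpc against 8486 to 9765 RPM in the others, 4316 RPM of Sftpb against 2158 to 2495 RPM, and 996 RPM of Sftpd against 583 to 729 RPM. It also had 438 RPM of Napsa against 231 to 247 RPM, 781 RPM of Lpcat1 against 355 to 483 RPM, and 621 RPM of Abca3 against 364 to 473 RPM. These were the 6 values so marked among 40 groups of values, of which chance marks about 1 in 20, and they come from 1 library, with 15028212 reads on genes. Without it the difference of Sftpc in PM offspring was 1.29 instead of 1.14 on the log2 scale, and Napsa became the 7th member called (0.37, limma adjusted p = 0.0249).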

How the results depend on the processing

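Of 1419 member values under alternative settings, 1377 kept their side of the threshold, 16 lost it, 18 gained it and 8 were called with one sign and had the other under another setting. Of all 1419, 169 had the other sign, 161 of them in values called in neither. The 8 were Sftpa1 with quantile normalisation (-0.20 in Sham, -0.25 in PM offspring), Abca3 in Sham offspring with median-of-ratios scaling (0.33), edgeR (0.42), DESeq2 (0.34) and the length and GC trend removed (0.68), Abca3 in PM offspring with that trend removed (0.49), and Lpcat1 in Sham offspring with edgeR (0.46). With edgeR all 10 members were called in Sham offspring, 7 higher and 3 lower, against 33.2% and 33.8% of all genes. At the threshold of the study limma and edgeR called 0 members in both OVA comparisons. DESeq2 called 4 in Sham and 2 in PM offspring, beside its shares of all genes given above. Limma with array weights called 3 and 2. It then called 8.69% of all genes higher and 17.7% lower in Sham offspring, and 2.93% and 12.1% in PM offspring. Limma without the shallow libraries called 2 and 0 members, against 5.72% of all genes higher and 12.6% lower in Sham offspring, and 0.101% and 0% in PM offspring. Array weights called 3 members in the interaction, and 27.5% of all genes, where limma without them called 0 and 0%, and the weights for PM-OVA against Sham-OVA did not converge. DESeq2 gave no adjusted p for Lamp3 in PM offspring. The cause was not tested. Leaving out 1 library gave 6 to 6 members called in Sham, 6 to 7 in PM offspring and 0 to 0 in the other comparisons, and Sftpc against the mean of the other 9 members ranged from 1.43 to 1.84 and from 1.54 to 2.29. A replicate block on title numbers called 6 members in each OVA comparison (59.7% and 47.5% of all genes). A block on library name numbers called 5 in Sham and 2 in PM offspring (56.4% and 19.1% of all genes). In no comparison were all same-number correlations positive. By title number the correlations ranged from -0.07 to 0.12 in Sham and from -0.10 to 0.06 in PM offspring, and 2 of 5 and 1 of 4 libraries correlated best with their own number. They ranged from -0.31 to 0.62 in PM-OVA against Sham-OVA, with 2 of 4 best with their own, and from -0.25 to 0.10 in PM against Sham, with 0 of 7. By library name number they ranged from -0.06 to 0.08 in Sham and from -0.07 to 0.15 in PM offspring, and from -0.63 to 0.29 in PM-OVA against Sham-OVA. The 3 shallow libraries and the length and GC trend were chosen as alternatives after seeing the data.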
